A study of Mus musculus with 8 samples.

Results

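The genes described here were 10 long noncoding RNAs (lncRNAs) that carry a name of their own: *Pvt1*, *C230072F16Rik*, *Malat1*, *Neat1*, *Meg3*, *H19*, *Rian*, *Mirg*, *Gas5* and *Kcnq1ot1*. Every spot that is not a control and whose gene name on the array is 1 of these names was taken, which gave 27 probes of 9 genes, each spotted 1 time, among 56605 probes of 37074 gene names. *Malat1* was not analysed here. *Pvt1* and *C230072F16Rik* were chosen because their fitted differences between the groups stood among the highest in an earlier analysis of these same arrays, so their values are a description and carry no test. The other genes were listed by name.

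A lncRNA is a long transcript that is not translated and acts as RNA, or whose transcription itself has an effect. *Pvt1* lies beside the oncogene *Myc* and is known from tumors, where the pair is often amplified together. *Meg3*, *Rian* and *Mirg* are transcribed from the maternal copy of the imprinted *Dlk1*-*Dio3* domain, where *Rian* hosts small nucleolar RNAs and *Mirg* microRNAs, while *H19* and *Kcnq1ot1* belong to neighbouring imprinted domains and *Kcnq1ot1*, made from the paternal copy, silences genes around it. *Neat1* builds the nuclear bodies called paraspeckles. *Gas5* hosts small nucleolar RNAs, and its spliced transcript is removed by nonsense-mediated decay.

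Expression was measured on Agilent one-color mouse arrays, with 1 array for each of 4 Co mice, which received saline, and 4 Pg mice, which received sonicated *Porphyromonas gingivalis*, a bacterium of periodontal disease, in 100 μL of saline. All were C57BL/6J mice aged 12 weeks, and the RNA was taken 18 h after the intravenous injection from tissue labelled brown adipose tissue (BAT). The labels print the dose as 108 CFU, where the methods of the study give a power. The comparison asks how endotoxemia from this bacterium alters expression in BAT.

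All 8 arrays lay on 1 slide, the Co arrays in its row 1 and the Pg arrays in its row 2, so position on the slide and group cannot be told apart. A Co array had 34760 to 35830 probes well above background and a Pg array 31132 to 34063. Of 12 brown adipocyte markers, 8 were well above background on all 8 arrays and 4, among them *Ucp1*, the uncoupling protein that defines the tissue, on none, whereas all 20 skeletal muscle markers were above it on all 8. The summed signal of each of the 7 marker lists (brown adipocyte, adipocyte, skeletal muscle, macrophage, neutrophil, T and B cell, endothelial) overlapped between the groups, but such a sum is carried by its brightest genes, and quantile normalization nearly fixes the values of the brightest of all, such as *Tnnt3* at 18.81 to 18.84, so the muscle sum carries little information on the groups. *Cd79b*, of B cells, was the only DEG among these markers. Of the muscle markers, 17 of 20 had the lower mean in Pg mice, and *Atp2a1*, the calcium pump of fast muscle, differed by −0.44 (limma's adjusted p = 0.0411). *Kdr*, a receptor of endothelial cells, differed by 0.57 (adjusted p = 0.0573), while of the 6 endothelial markers 4 were higher and 2 lower in Pg mice. The neutrophil genes *S100a8* and *S100a9* differed by 2.16 and 2.04 (adjusted p = 0.132 and 0.195), whereas *Ly6g*, *Camp* and *Elane* were at 0.09, 0.01 and −0.03. The part of such differences in the lncRNA values was not tested.

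Each probe is a DNA strand of 60 bases on the array. The probes of *Pvt1* and *C230072F16Rik* are shown because the probes of the same gene gave different readings. They are written 5′ to 3′ as the scanner files give them, and capitals mark AATAAA or ATTAAA, the hexamers that often precede a poly(A) tail.
Pvt1 A_55_P2738397 (AK165907): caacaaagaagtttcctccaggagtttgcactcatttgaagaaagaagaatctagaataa
Pvt1 A_55_P2004381 (AK144873): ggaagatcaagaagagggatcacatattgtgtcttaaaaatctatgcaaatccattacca
Pvt1 A_55_P2728966 (NR_003368): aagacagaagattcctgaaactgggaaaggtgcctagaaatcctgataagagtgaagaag
Pvt1 A_55_P2051254 (NR_003368): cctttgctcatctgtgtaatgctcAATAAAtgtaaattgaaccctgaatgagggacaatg
Pvt1 A_52_P76184 (AK090048): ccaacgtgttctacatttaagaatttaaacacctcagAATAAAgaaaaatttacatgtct
C230072F16Rik A_55_P2731596 (NR_131128): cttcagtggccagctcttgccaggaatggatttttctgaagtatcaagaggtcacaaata
C230072F16Rik A_66_P112301 (NR_131127): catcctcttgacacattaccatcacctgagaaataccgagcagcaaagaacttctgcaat

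In the coordinates of the scanner files (mm9, plus strand), these 5 *Pvt1* probes lie in this order at chr15:61512367-61512426, chr15:62007459-62007518, chr15:62074057-62074116, chr15:62081020-62081079 and chr15:62209592-62209651. The AK144873 probe lies 186 kb beyond the nearest *Myc* probe, and the NR_003368 probes 66.6 and 73.6 kb further on. The AK165907 probe lies 309 kb on the other side of *Myc*. Those of *C230072F16Rik*, a lncRNA gene, lie at chr17:81322877-81322936 and chr17:81331535-81331594. No annotation of mm9 was used here, so exons and introns are not assigned. A hexamer was present in 3 of the 27 probes (11.1%) and in 13.4% of all probes, and the share of G and C ran from 23.3% to 55% among the 27, with a median of 40% against 41.7% for all probes.

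The probes of *Kcnq1ot1* and *Mirg* are shown because they hold the differences among the genes listed by name.
Kcnq1ot1 A_55_P2408415 (NR_001461): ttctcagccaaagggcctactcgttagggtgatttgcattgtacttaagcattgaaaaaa
Kcnq1ot1 A_55_P2726560 (NR_001461): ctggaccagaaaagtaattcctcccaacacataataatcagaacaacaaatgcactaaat
Kcnq1ot1 A_55_P2726757 (NR_001461): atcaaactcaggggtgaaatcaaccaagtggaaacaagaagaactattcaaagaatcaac
Kcnq1ot1 A_55_P2717618 (NR_001461): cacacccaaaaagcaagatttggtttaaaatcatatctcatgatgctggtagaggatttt
Mirg A_55_P2336173 (AK077315): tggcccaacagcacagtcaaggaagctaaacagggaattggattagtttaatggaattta
Mirg A_66_P121059 (NR_028265): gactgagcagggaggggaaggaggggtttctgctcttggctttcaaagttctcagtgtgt

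The *Kcnq1ot1* probes lie on the minus strand at chr7:150440140-150440199, chr7:150410464-150410523, chr7:150409006-150409065 and chr7:150399016-150399052, in the order shown. The last is a partial alignment, and by the start positions that the files give on NR_001461 (42253, 71929, 73387 and 67016) that probe comes second along the transcript. The *Mirg* probes lie on the plus strand at chr12:110979653-110979712 and chr12:110987569-110987628. Both sets are in mm9.

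Most of these lncRNAs were measured in the tissue. Of the 27 probes, 19 were well above background on all 8 arrays, 4 on some and 4 on none, and no spot was saturated. The test took probes that were above background on 4 arrays or more, 21 of the 27 and 33819 in all. Values are the background-subtracted signal after quantile normalization, on the log2 scale. For some spots too dim to measure, the scanner software had put a substitute value in place of that signal. A DEG is a probe with an FDR q under 0.1 in limma and a fold change above 1.5. Of all tested probes, 1.61% were DEGs, 0.313% higher and 1.3% lower in Pg mice. These 106 higher and 440 lower probes became 137 and 146 when each array was scaled by its 75th percentile. Without any normalization they became 20 and 7, so the split depended on the scaling. With normexp, a background step in limma run here on mean signals with an offset of 50, they became 66 and 28. That setting changed the input signal, the background step and the offset at once, and their separate parts were not tested.

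Among the 17 tested probes of the 7 genes listed by name, 9 had the higher mean in Pg mice (of all tested probes, 42.3%) and 8 in Co mice. Their differences ran from −0.45 to 0.65 around a median of 0.04, against −0.04 for all tested probes. A single probe, of *Kcnq1ot1*, was a DEG. The FDR q was under 0.1 for 2 of the 17 (7.82% of all tested probes) and the unadjusted p under 0.05 for 5 (22.8%). Groups without overlap were seen at 3 of the 17 (15.8% of all tested probes), each time with Pg mice higher (4.83%). The 95% intervals of the 16 probes that were not DEGs reached from −0.90 to 1.01 on the log2 scale, so for several of them the interval held a 1.5-fold difference. In RNA from whole tissue, fewer cells of a type and less RNA per cell cannot be told apart.

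**Figure D1:**
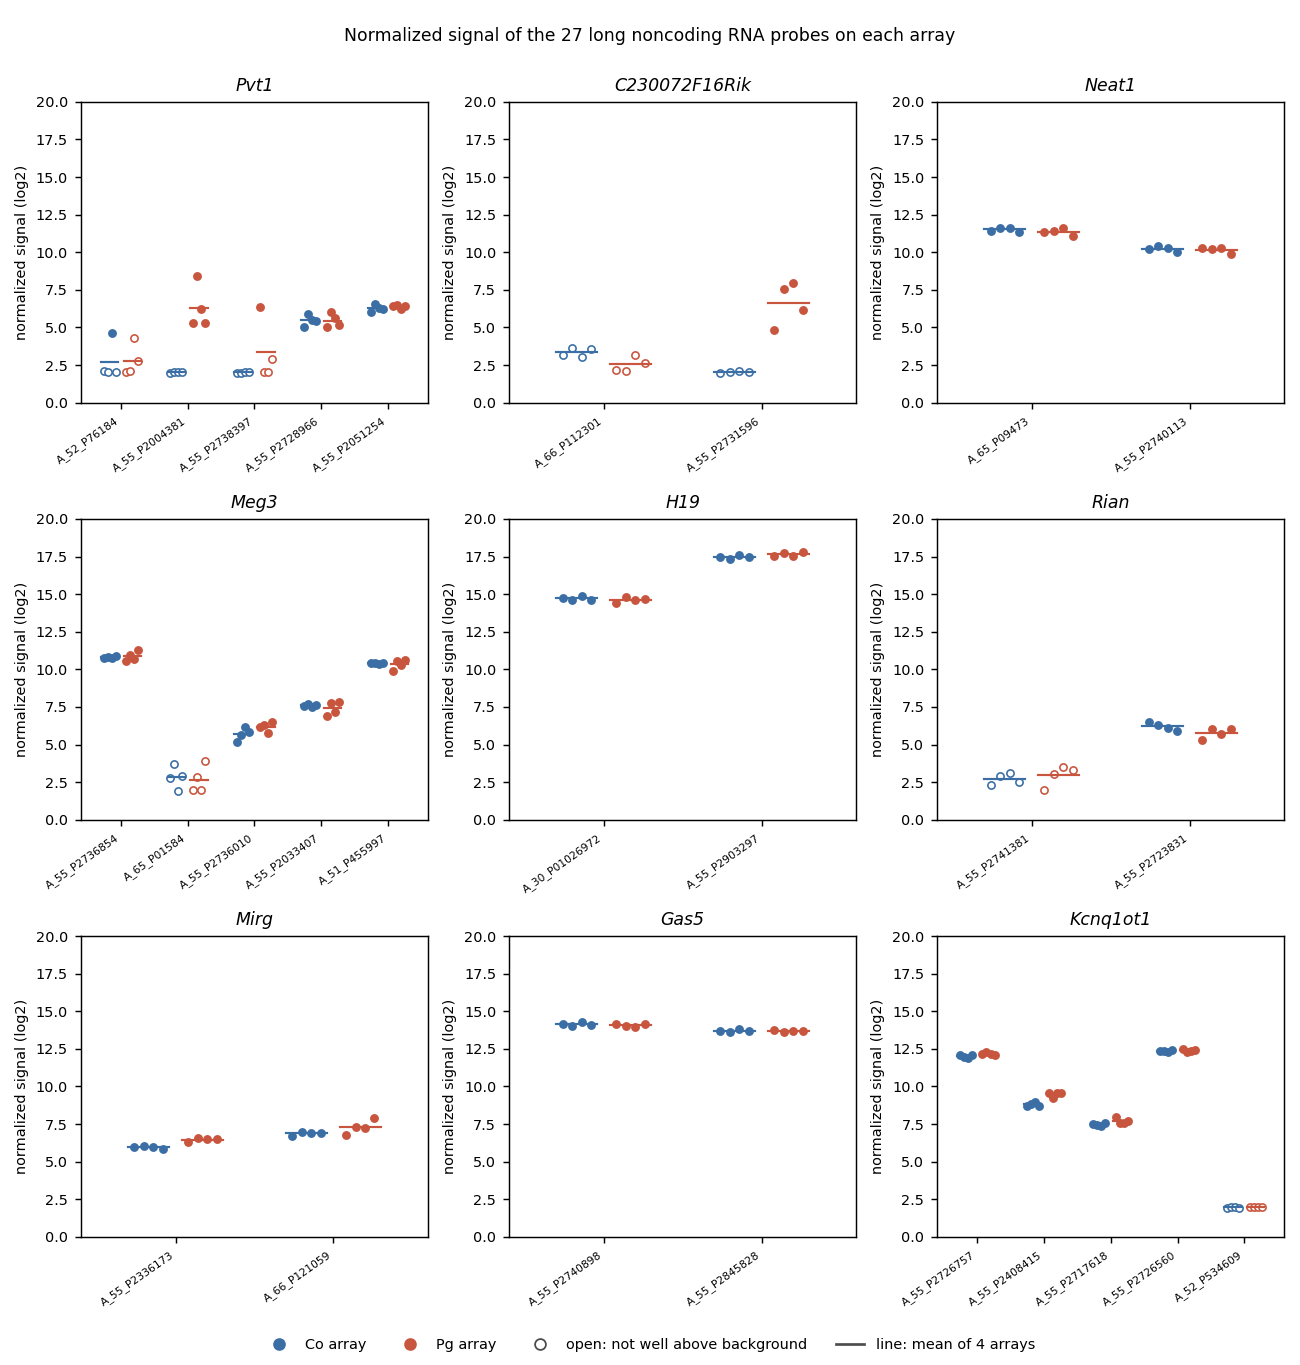
Normalized signal (log2) of all 27 probes in 9 panels, 1 per gene, with the 4 Co arrays in blue and the 4 Pg arrays in red. Open circles are spots that were not well above background and lines are means of 4 arrays. The AK144873 probe of *Pvt1* (A_55_P2004381) and the NR_131128 probe of *C230072F16Rik* (A_55_P2731596) are open on all Co arrays and filled on all Pg arrays, whereas the other filled pairs lie close together.

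*Pvt1* was read differently by its probes. The AK144873 probe had log2 values of 1.96, 2.01, 2.07 and 2.05 on the Co arrays, none of them well above background. On the Pg arrays it had 5.27, 8.40, 6.20 and 5.31, all well above background. The groups did not overlap, and Pg2 stood highest by more than 2 log2 units. The means were 2.02 ± 0.05 and 6.29 ± 1.47 (SD, n = 4). All 4 Co values were substitutes of the scanner software, so the SD of 0.05 is not a spread between mice. The probe stood 2nd of 33819 by its fitted difference of 4.27. Since no Co array measured it, this difference has only a bound. Set against the dimmest probe that was well above background on each Co array (3.72 to 4.01), the Pg mean was at least 5.36-fold higher. The bound was 3.28 without Pg replicate 2. With the median signal without background subtraction it was 2.27 and with limma's normexp correction 2.34.

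Both NR_003368 probes of *Pvt1*, which match the reference lncRNA, were well above background on all 8 arrays and showed no such step. A_55_P2051254 had 6.02, 6.57, 6.27 and 6.20 in Co mice and 6.42, 6.50, 6.25 and 6.44 in Pg mice. A_55_P2728966 had 5.05, 5.92, 5.49 and 5.44 in Co mice and 5.002, 6.02, 5.61 and 5.18 in Pg mice. The groups overlapped for both, with differences of 0.14 and −0.02. The second turned to the other direction under several settings of the processing, at most to 0.16. The remaining 2 probes were not tested. The AK165907 probe was well above background only on Pg1, at 6.36, with 1.99 to 2.02 on the Co arrays, and the AK090048 probe only on Co3, at 4.66.

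*C230072F16Rik* showed the same kind of split. Its NR_131128 probe had 1.97, 2.01, 2.11 and 2.03 on the Co arrays, none well above background, and 4.82, 7.59, 7.94 and 6.14 on the Pg arrays, all well above it. The groups did not overlap, and the Pg arrays spread over 3 log2 units. The means were 2.03 ± 0.06 and 6.62 ± 1.43 (SD, n = 4). The values on Co1, Co2 and Co4 were substitutes of the scanner software, so the SD of 0.06 is not a spread between mice. The fitted difference of 4.59 stood 1st of 33819, and the bound was at least 6.71-fold higher in Pg mice. It was 10.3 without Pg replicate 1 and 2.55 and 2.86 with normexp and with the median signal. The NR_131127 probe, 8.66 kb further along, stayed below that level on all 8 arrays, with 3.04 to 3.66 in Co mice and 2.12 to 3.19 in Pg mice.

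The spots of these probes lay at the top edge of the arrays, in rows 2 and 13 of 384. Spots near them also gained signal, on some or all of the Pg arrays. The background-subtracted signal of the *Pvt1* AK144873 spot was −1.40, 2.45, 1.47 and −0.69 on the Co arrays and 47.6, 364, 77.6 and 44.2 on the Pg arrays. A negative control spot 2 rows below it in the same column, which is made to bind no transcript, had −4.45, −0.67, −4.38 and −5.14 on the Co arrays and 18.97, 158, 46.9 and 15.2 on the Pg arrays. Its Pg arrays stood in the same order of size as those of the *Pvt1* spot, but only Pg2 and Pg3 were well above background. The order of its Pg1 and Pg4 thus rests on values that were not measured. The spot between the *Pvt1* spot and this control, for CB527178, had 30.8, 287, −4.87 and 28.8 on the Pg arrays. Of these, Pg2 and Pg4 were well above background. The directly adjoining spot, for *1300017J02Rik*, had −1.70, 171, −4.43 and 120, and the spot for *Olfr867* gained on Pg1 alone, at 95.4.

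Spots beside *C230072F16Rik* gained signal too, not in the same order of the arrays. Its own spot had 34.3, 209, 254 and 77.3 on the Pg arrays. The adjoining spot for *C87414* had 84.8, 44.8, 31.7 and 53.8, highest where the *C230072F16Rik* spot was lowest. A diagonal neighbour for *Gm12290* had 10.7, not well above background, and then 624, 322 and 94.0. The 3 spots lay between −2.09 and 7.01 on every Co array.

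**Figure D2:**
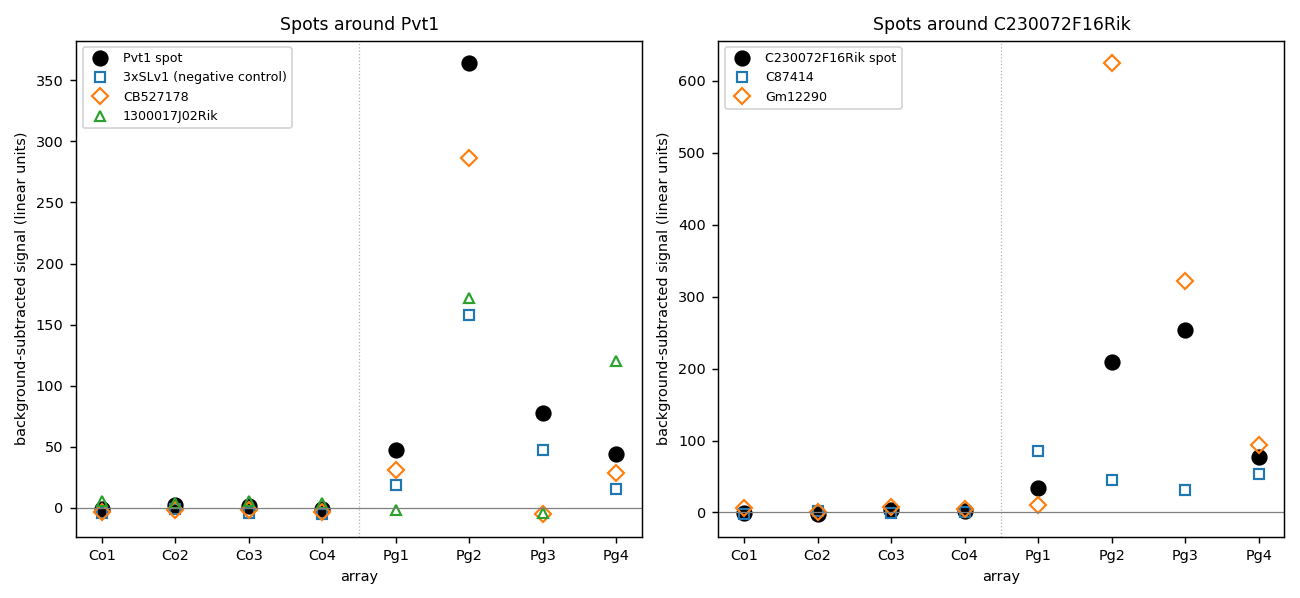
Background-subtracted signal (linear units) on each of the 8 arrays for the *Pvt1* AK144873 spot and 3 of its neighbours (left) and the *C230072F16Rik* NR_131128 spot and 2 of its neighbours (right). All spots are near 0 on the Co arrays, and on Pg2 the *Pvt1* spot reached 364 and the negative control beside it 158.

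The edge of the array differed between the groups as a whole. Of the spots that were dim on every Co array, 475 of 785 in rows 1 to 15 (60.5%) were well above background on at least 1 Pg array, against 2034 of 17272 in the other rows (11.8%). Of the negative controls in rows 1 to 15, 9 of 12 were above background on at least 1 Pg array and 0 on a Co array. In the other rows 23 of 296 were above it on a Pg array and 17 on a Co array. Among all 33819 tested probes, 5 were dim on all Co arrays, and all 5 lay in rows 1 to 15: those of *Pvt1*, *C230072F16Rik*, *C87414*, *Slc18a1* and *Adgrv1*. In the other direction, 529 tested probes were dim on all Pg arrays, of which 9 lay in rows 1 to 15 and 134 were DEGs. The probes with the 12 highest fitted differences all lay in rows 1 to 13. The limit at row 15 was chosen after seeing the data, and the part of the array position in these differences was not tested.

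Of the 17 tested probes of the genes listed by name, 3 lay in rows 1 to 15 and had the higher mean in Pg mice, as did 57.6% of all tested probes there. Of the other 14, 6 did, against 41.6% of the tested probes in the other rows. Among the spots within 2 rows and 2 columns of the *Pvt1* AK144873 spot, 6 of 7 that were dim on every Co array were above background on a Pg array, and around the *C230072F16Rik* NR_131128 spot 5 of 5 were. Around the NR_003368 probes of *Pvt1*, in rows 140 and 159, it was 0 of 3 and 2 of 8. The edge was not the only place with such spots, as it was 4 of 8 around the AK165907 probe of *Pvt1* in row 24, 5 of 8 around *Meg3* A_51_P455997 in row 171 and 3 of 6 around *H19* A_30_P01026972 in row 87.

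**Figure D3:**
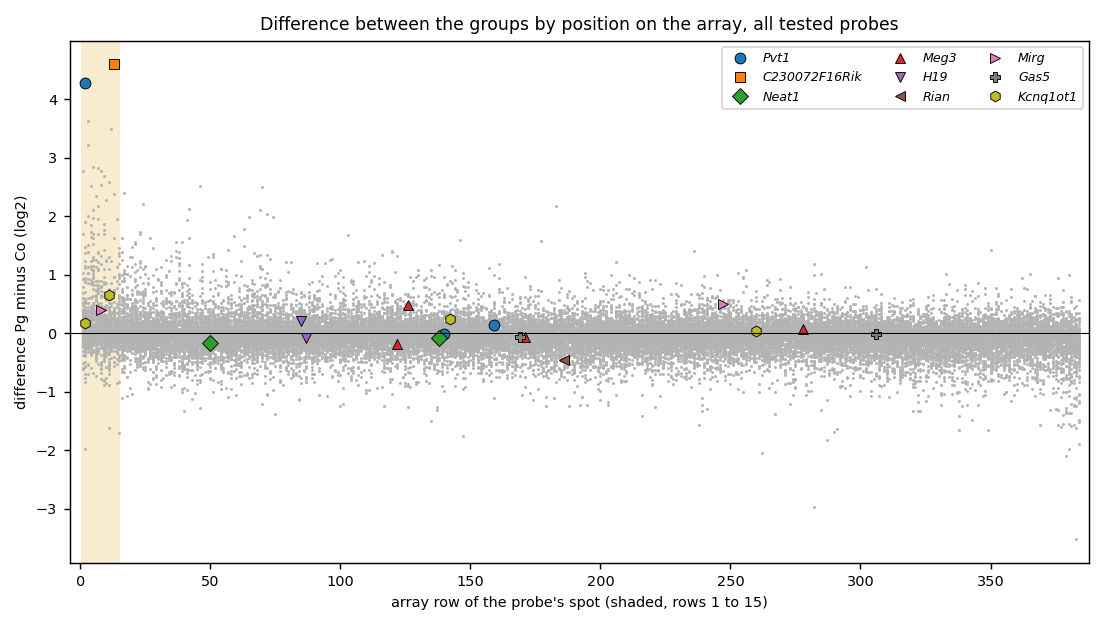
Difference Pg minus Co (log2) of each of the 33819 tested probes (grey) against the array row of its spot, with the 21 lncRNA probes as colored symbols and rows 1 to 15 shaded. The 12 highest points are all in the shaded rows, with *C230072F16Rik* at 4.59 and *Pvt1* at 4.27.

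*Kcnq1ot1* was the DEG among the genes listed by name. Its probe A_55_P2408415 had 8.67, 8.85, 8.99 and 8.73 on the Co arrays and 9.54, 9.23, 9.54 and 9.55 on the Pg arrays. The groups did not overlap, and Pg2 stood below the other Pg arrays. The level was 8.81 ± 0.14 in Co mice and 9.46 ± 0.16 in Pg mice (SD, n = 4), and it rose by 0.65 on the log2 scale, 1.57-fold (standard error 0.10, limma's adjusted p = 0.0429). The adjusted p was 0.106 without Co replicate 2, 0.107 without Co replicate 3 and 0.122 without normalization between arrays, so the call was lost there. It was kept under 14 of the 18 alternatives that tested the probe, with adjusted p from 0.0264 to 0.122 over them. Its spot lay in row 11, and 0 of 8 spots around it that were dim on every Co array were above background on a Pg array.

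The other tested *Kcnq1ot1* probes were all higher in Pg mice, by less. A_55_P2717618 had 7.52, 7.42, 7.40 and 7.55 in Co mice and 7.94, 7.58, 7.60 and 7.71 in Pg mice. Its groups did not overlap, with a difference of 0.24 (95% interval 0.02 to 0.45, limma's adjusted p = 0.18). A_55_P2726757 differed by 0.17 (0.00 to 0.33, adjusted p = 0.21), and its spot lay in row 2, where 4 of 4 dim neighbours were above background on a Pg array. A_55_P2726560 differed by 0.04 (−0.09 to 0.17, adjusted p = 0.698). Ordered by their start positions on NR_001461, the differences were 0.65, 0.24, 0.04 and 0.17. The remaining probe, A_52_P534609, stayed below the background limit on all 8 arrays.

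*Kcnq1*, the potassium channel gene that *Kcnq1ot1* overlaps in antisense, did not pass the test. Its probe with the highest mean differed by −0.69 (standard error 0.26, limma's adjusted p = 0.168), and 1 of its 4 tested probes went the other way. *Cdkn1c*, the growth inhibitor of the same domain, differed by −0.02 (adjusted p = 0.955).

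*H19*, a growth-restraining lncRNA and the source of a microRNA, was measured by 2 probes with opposite signs. A_55_P2903297 had 17.44, 17.32, 17.58 and 17.47 in Co mice and 17.52, 17.73, 17.57 and 17.81 in Pg mice, with a difference of 0.20 (standard error 0.09, limma's adjusted p = 0.221). A_30_P01026972 had 14.60 to 14.87 in Co mice and 14.40 to 14.78 in Pg mice, with a difference of −0.09 (adjusted p = 0.631). The groups overlapped for both. *Igf2*, the growth factor gene next to *H19*, differed by −0.00 (standard error 0.20, adjusted p = 0.999), between 8.27 and 8.54 in Co mice and between 8.05 and 8.88 in Pg mice.

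In the *Dlk1*-*Dio3* domain, the maternal lncRNAs had differences of both signs. The AK077315 probe of *Mirg* had 5.94, 6.01, 5.99 and 5.86 on the Co arrays and 6.31, 6.55, 6.49 and 6.48 on the Pg arrays. Every Pg array lay above every Co array. The levels were 5.95 ± 0.06 and 6.46 ± 0.10 (SD, n = 4), and the difference of 0.50 (1.42-fold, standard error 0.07, limma's adjusted p = 0.0398) was under the fold limit of a DEG. It was a DEG with scaling to the 75th percentile and without normalization between arrays. Its spot lay in row 247, and 0 of 11 dim neighbours were above background on a Pg array. The NR_028265 probe of *Mirg* had 6.72, 6.99, 6.93 and 6.92 in Co mice and 6.76, 7.30, 7.25 and 7.87 in Pg mice, a difference of 0.40 that did not pass (95% interval −0.08 to 0.89, adjusted p = 0.297). Its spot lay in row 8, where 4 of 7 dim neighbours were above background on a Pg array.

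*Rian* had 6.50, 6.33, 6.12 and 5.91 in Co mice and 5.30, 6.02, 5.71 and 6.03 in Pg mice at its only tested probe, NR_028261. The groups overlapped, and the difference of −0.45 had a 95% interval of −0.90 to −0.01 but an adjusted p of 0.213 in limma. Its AF498300 probe stayed below the background limit on all 8 arrays. *Meg3*, a growth-restraining lncRNA, had a probe that no array measured well above background, A_65_P01584, and 4 tested ones, with differences of 0.49 (A_55_P2736010), 0.08 (A_55_P2736854), −0.07 (A_51_P455997) and −0.18 (A_55_P2033407). Limma's adjusted p ran from 0.247 to 0.805 over them, and the groups overlapped in each. The probe with 0.49 had 5.17, 5.60, 6.14 and 5.83 in Co mice and 6.16, 6.28, 5.78 and 6.47 in Pg mice. The other 3 shared a low Pg1 and a high Pg4, for example 6.90, 7.77, 7.18 and 7.82 at A_55_P2033407, and the Pg arrays spread wider than the Co arrays, with SDs of 0.32 to 0.45 against 0.04 to 0.07.

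*Dlk1*, the inhibitor of fat cell formation made from the paternal copy of this domain, was the only partner gene past the limits of a DEG, on values that were mostly too dim to measure in Pg mice. It had 4.66, 5.20, 4.63 and 5.13 in Co mice and 3.88, 3.93, 4.21 and 4.62 in Pg mice, with a fitted difference of −0.75 on the log2 scale. It was well above background on 4 Co arrays and 1 Pg array, so it was tested through the Co arrays. Its values on Pg1, Pg2 and Pg3 lay under the dimmest signal well above background on those arrays (4.61, 4.50 and 4.72), so this difference is given as a description, and no partner gene was a DEG under 15 of the 20 alternatives. *Rtl1* and *Dio3*, the other paternal genes, did not pass the filter on dim probes.

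*Neat1* and *Gas5* differed by little. The *Neat1* probes A_65_P09473 and A_55_P2740113 differed by −0.17 and −0.08 (standard error 0.12 for each, limma's adjusted p = 0.428 and 0.734), with 11.36 to 11.64 in Co mice and 11.10 to 11.58 in Pg mice for the first and 10.04 to 10.41 and 9.85 to 10.29 for the second. The groups overlapped for both. Pg4 was the lowest array at both. *Gas5* stood at 14.05 to 14.26 in Co mice and 13.96 to 14.15 in Pg mice at A_55_P2740898, and at 13.62 to 13.79 and 13.65 to 13.72 at A_55_P2845828. The groups overlapped for both, with differences of −0.07 and −0.01. Their 95% intervals were −0.24 to 0.10 and −0.14 to 0.12, and limma's adjusted p was 0.599 and 0.957.

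**Figure D4:**
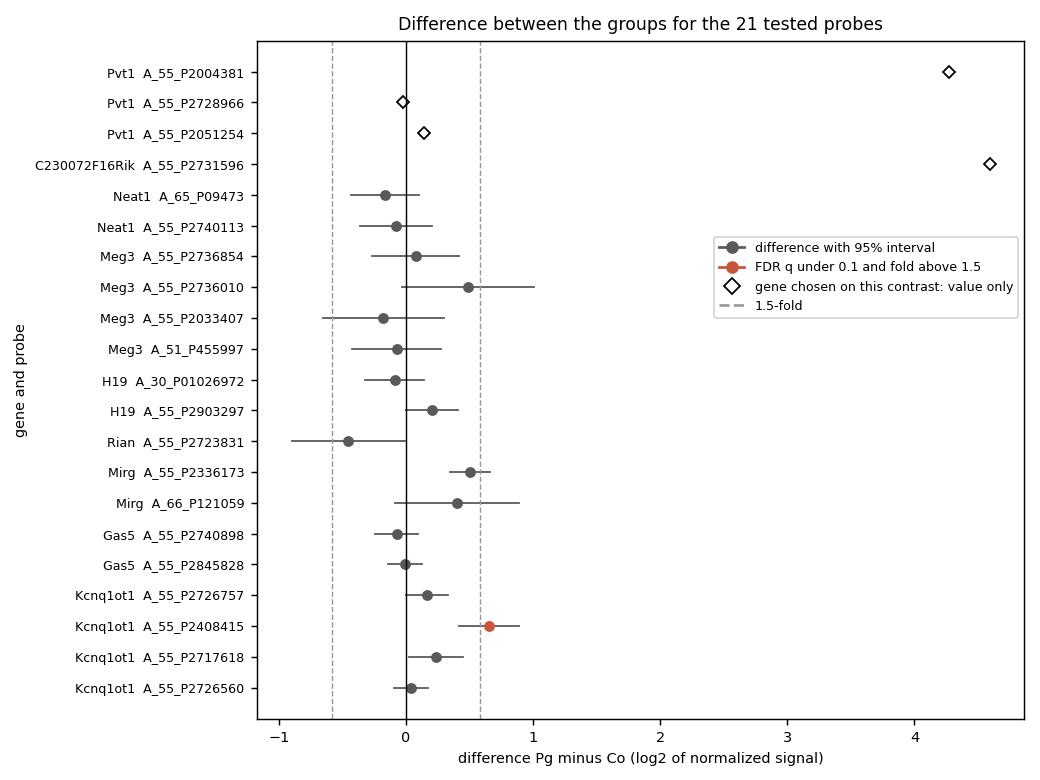
Difference Pg minus Co (log2) of the 21 tested probes, with 95% intervals for the genes listed by name and diamonds without interval for *Pvt1* and *C230072F16Rik*, which were chosen on this contrast. The DEG of *Kcnq1ot1* at 0.65 is red, dashed lines mark 1.5-fold, and the diamonds at 4.27 and 4.59 stand apart from the NR_003368 probes of *Pvt1* near 0.

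Of the 7 genes with 2 or more tested probes, 4 had all their probes on the same side: *Kcnq1ot1* and *Mirg* higher, *Neat1* and *Gas5* lower. *Pvt1*, *Meg3* and *H19* had both signs. Over the 8 arrays, which share their normalization, the probes of *Neat1* followed each other with Pearson's r = 0.87 and those of *Gas5* with 0.851. For *Meg3*, r ran from 0.05 to 0.964 over 6 pairs, and the A_55_P2736010 probe was the one that stood apart. For *Kcnq1ot1* it ran from 0.262 to 0.842, for *Mirg* it was 0.68 and for *H19* 0.278. The *Pvt1* AK144873 probe correlated at 0.268 and 0.434 with the NR_003368 probes, which correlated at 0.522 with each other. Since the AK144873 probe was below background on all Co arrays and chosen for its difference, its r does not measure how the probes agree.

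The probes most like *Pvt1* A_55_P2051254 over the 8 arrays were those of *Klhl30*, *2310079F09Rik* and *E2f8* (r = 0.965, 0.958 and 0.934). On deviations from the group means they were *E2f8*, *Slc35b4* and *Klhl30* (0.971, 0.964 and 0.963). For *C230072F16Rik* none are given, since its NR_131128 probe was below background on all Co arrays. With so many probes and 8 arrays, high values of r arise easily, and they are given as a description.

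Around these lncRNAs, 177 genes were grouped in 10 lists, of which 146 were tested. *Dlk1*, dim as it was, was the only 1 past the limits of a DEG, against 1.19% of all 22454 tested genes, and 11 (7.53%) had an FDR q under 0.1, against 6.25% of all tested genes. The medians of 7 of the 10 lists lay so near 0 that their sign changed under at least 1 alternative, the exceptions being the *Myc* network, the nuclear speckle proteins and the neighbours of *Gas5* with the decay factors. Of the *Myc* network and the neighbours of *Pvt1*, Pg mice had the higher mean for 4 of 15 tested genes and the lower for 11. The median difference was −0.11, against −0.01 for all genes. *Myc* itself had 8.62, 8.52, 8.91 and 8.23 in Co mice and 8.33, 8.36, 8.16 and 7.86 in Pg mice. The groups overlapped, with a difference of −0.39 (standard error 0.16, limma's adjusted p = 0.206). The largest others were *Mycn* at 0.50 (adjusted p = 0.313) and *Gsdmc* at −0.46 (adjusted p = 0.115).

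Paraspeckle proteins, which bind *Neat1*, were higher for 13 and lower for 10 of 23 genes, with a median of 0.02. The core proteins *Sfpq* and *Nono* differed by 0.02 and 0.07 (limma's adjusted p = 0.888 and 0.497), each with 1 tested probe that went the other way. *Pspc1*, another core protein, had groups that did not overlap, with a difference of −0.27 (adjusted p = 0.0808) that was under the fold limit of a DEG. *Rbm4b* at −0.36 had an adjusted p of 0.0826 and *Hnrnpk* at −0.29 one of 0.0649, both under that limit too. Nuclear speckle proteins were higher for 10 of 15 genes (median 0.05), and *Srsf6*, a splicing factor, differed by 0.29 (adjusted p = 0.0993), while the other of its 2 tested probes went the other way. Of the 6 tested neighbours of *Malat1* and *Neat1*, 4 were higher, with a median of 0.01.

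Of the other imprinted genes, 7 of 14 were higher and 7 lower (median −0.00), and in the *H19* and *Kcnq1ot1* domains 8 of 16 were higher. In the *Dlk1*-*Dio3* domain 4 of 7 were higher, with *Wars1*, a tRNA synthetase gene listed by the array as *Wars*, at 0.25 (limma's adjusted p = 0.065) and its other tested probe in the opposite direction. The noncoding hosts of small nucleolar RNAs, the class of *Gas5*, were higher for 9 and lower for 8 of 17 genes (median 0.02), among them *Snhg1* at −0.16 (adjusted p = 0.34). *Zfas1* was not analysed here. The neighbours of *Gas5* and the decay factors were lower for 8 of 11 genes (median −0.10), *Smg6*, an endonuclease of the decay pathway, being at 0.25 (adjusted p = 0.0753) with its other tested probe again in the opposite direction. Among 22 other named lncRNAs, 13 were higher and 9 lower (median 0.06), with none past the fold limit. *Rmrp* at 0.36 (adjusted p = 0.0866), *Mir99ahg* at 0.29 (adjusted p = 0.0675) and *Tug1* at −0.31 (adjusted p = 0.0683) had an FDR q under 0.1, but 2 of the 5 tested probes of *Mir99ahg* went the other way.

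**Figure D5:**
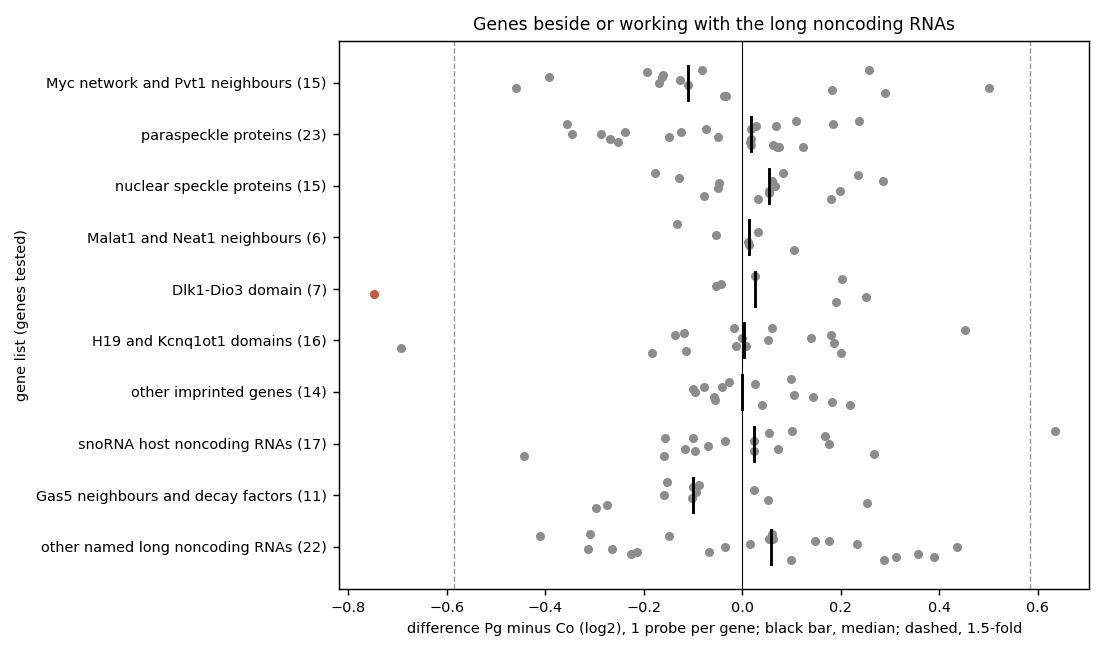
Difference Pg minus Co (log2) of the tested genes of the 10 lists, 1 probe per gene, with the number tested after each name, the median as a black bar and 1.5-fold as dashed lines. *Dlk1* (red) at −0.75 is the only gene past the limits of a DEG, and the medians lie between −0.11 and 0.06.

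Promoter sequences of RefSeq (GRCm38.p6, 300 bases around the start) were found for 6 of the 9 genes, in 8 windows. On either strand, GGGCGG was present in both windows of *Gas5* and in 35.7% of 32851 promoters, and TATAAA in 1 of 2 windows of *Meg3* and in 13.6% of promoters. CACGTG and TGACTCA were in none of the 8 windows, against 7.15% and 5.2% of promoters. The only window of *C230072F16Rik* held none of the 4 motifs.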

How the data were processed

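Total RNA labelled brown adipose tissue from 4 Co and 4 Pg mice was hybridized to 8 one-color arrays. The authors deposited the Cy3 intensity of each spot from Feature Extraction 11.0.1.1, background-subtracted and detrended, with no normalization between arrays. The authors also deposited quantile-normalized log2 values (column medians 8.08 to 8.10), used here as an alternative, beside fold changes and p-values of their own comparison, which were not used. The background step and filter of that table are not given in the sources used here, and it holds 14 of the 27 probes.

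Of 59305 spots, those marked as population outliers (90 to 150 per array) were left out, and spots of a probe were averaged. Values were quantile-normalized, raised to at least 1 and log2-transformed. Probes that 4 or more arrays measured well above background were compared with limma 3.58.1 in R 4.3.3 (lmFit and eBayes, two-sided, Benjamini-Hochberg over all 33819). The fit was tested on simulated data. Except where dim spots hold substitute values, the spread is that between 4 mice per group, whose number limits the precision.

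The lncRNAs, the gene lists and the tests were chosen with earlier results of these data known. Named were all probes of the lncRNAs, DEGs of the lists, some fixed partners and, per list, up to 3 of the genes with the largest differences. Not every gene with a large difference was named. Left out were, for example, *Snhg11* at 0.64, *Rbmx* at −0.35 and *Upf2* at −0.275, each with an FDR q above 0.1. In the lists each gene was represented by its brightest tested probe. *Pspc1*, *Rmrp*, *Mir99ahg*, *Tug1*, the cell type markers and the genes of spots near the array edge were named after their values were seen. Replicate numbers did not pair the arrays, as deviations from the group means of same-numbered arrays correlated at 0.06, −0.03, −0.07 and 0.18.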

Additional observations from a re-analysis of the deposited data

Results flagged for a closer look

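Over the 42 groups of 4 arrays of the 21 tested probes, 3 held an array far from the other 3, and chance gives about 1 in 20 groups. At *Kcnq1ot1* A_55_P2408415, Pg2 was 9.23, against 9.54 to 9.55 for Pg1, Pg3 and Pg4, but still above the highest Co array. At *Neat1* A_55_P2740113, Pg4 was 9.85, against 10.24 to 10.29 for the rest of its group. At *Meg3* A_51_P455997, Co3 was 10.35, against 10.42 to 10.43 for the rest of its group, a gap that is small beside the spread of the Pg arrays. The negative control spots gave signal outside the measured genes: in array rows 1 to 15, 9 of 12 were well above background on at least 1 Pg array and 0 on a Co array.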

How the results depend on the processing

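The *Pvt1* and *C230072F16Rik* probes were chosen on this contrast, so their part in the following counts is no test. The 3 lncRNA probes past the limits of a DEG, 1 of them of the genes listed by name, became 4 with scaling to the 75th percentile, where *Mirg* A_55_P2336173 had a difference of 0.62 (limma's adjusted p = 0.052). They became 1 with the filter at all 8 arrays, which leaves the *Pvt1* and *C230072F16Rik* probes untested. They became 1 in the authors' table, which does not hold the *Kcnq1ot1* probe and where the *Pvt1* probe was no longer past the limits, and 0 without array rows 1 to 15, where all 3 spots lie (an alternative chosen after seeing the data). With 1 array left out they ranged from 0 to 3, with 0 without Co replicate 3 and 1 without Co replicate 2, and the *Kcnq1ot1* probe was lost in both. The 546 DEG probes in all became 94 with normexp, 108 with the median signal, 283 with scaling to the 75th percentile, 27 without normalization, 318 and 303 with filters at 8 arrays and at 1 array, and 106 in the authors' table. With 1 array left out they ranged from 3 (without Co replicate 3) to 698 (without Pg replicate 3), with 110 to 328 without each of the other arrays. With the replicate number as a block, 0 probes were DEGs, 0 of them lncRNAs and 0 list genes, although the numbers do not pair the arrays, and the adjusted p of the *Kcnq1ot1* probe was 0.122. The cause of these moves was not tested. The 1 list gene called became 0 with normexp, the median signal, the 75th percentile, no normalization, each other filter and the authors' table, 2 without array rows 1 to 15, and 0 to 1 with 1 array left out. The 4 genes whose tested probes shared a side became 2 in the authors' table and 3 to 5 with 1 array left out.

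Small differences turned direction. So did the medians of 7 of the 10 lists. *Pvt1* A_55_P2728966 became 0.0078 with the median signal, 0.11 with the 75th percentile, 0.16 without normalization and 0.058 in the authors' table, and ranged from −0.21 to 0.13 with 1 array left out. *Gas5* A_55_P2845828 became 0.010 without normalization and ranged from −0.031 to 0.028. With 1 array left out, *Meg3* A_51_P455997 ranged from −0.16 to 0.074, *Meg3* A_55_P2736854 from −0.060 to 0.18 and *Neat1* A_55_P2740113 from −0.15 to 0.024. The other 16 tested probes kept their direction under the alternatives run. Probes that are dim on every Co array have only a bound. It moved most with normexp and with the median signal. Both settings changed the signal together with the background correction, and normexp also added an offset of 50.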
